A study of Mus musculus with 90 samples.

Results

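The integrated stress response genes examined here are Atf4 and 9 genes linked to it, namely Atf5, Ddit3, Asns, Trib3, Chac1, Sesn2, Psat1, Phgdh and Psph, taken by name from the RNA table of mouse livers around the first meal of the night. The 10 genes are 10 of 24312 gene symbols in that table, and each was represented by the RefSeq transcript with the highest mean over all RNA libraries. When amino acids are short or proteins misfold in the endoplasmic reticulum (ER), kinases phosphorylate the translation factor eIF2. General translation then falls, while the mRNA of the transcription factor ATF4 is translated better through short upstream reading frames, so the level of Atf4 mRNA need not follow ATF4 protein. ATF4 binds composite elements together with C/EBP proteins and switches on genes for amino acid synthesis, for amino acid sensing and, under lasting stress, for cell death. The liver meets large swings in amino acids, glucagon and insulin with each meal, and several of these genes are also known to respond to fasting hormones.

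RNA was sequenced from the livers of single male mice in 5 experiments and 54 libraries, all kept on night-restricted feeding with food given at ZT12 (ZT, hours after lights on) and all C57BL/6 or on that background. Uninjected C57BL/6N mice were killed at ZT10, at ZT14 without food, or at ZT14 after 2 hours with food, with 2 mice each and ribosome-depleted RNA; all other libraries were poly(A)-enriched. Injected C57BL/6N mice received vehicle (PBS), the glucocorticoid dexamethasone (DEX, 1 mg/kg), the insulin receptor antagonist S961 (44 nM per mouse as the labels put it), or the DEX and S961 combination before food was given and were killed fed at ZT14, and a last group received PBS and no food, with 4 mice each and the agents named from the sample titles. In the L-GRKO experiment all 8 mice carried floxed alleles of the glucocorticoid receptor (GR, gene Nr3c1) and received AAV with the hepatocyte promoter TBG driving GFP in 4 controls or Cre in 4 L-GRKO mice, and all were unfed at ZT14. In the L-IRSdKO experiment 4 IRS1/2 fl/fl controls and 4 such mice with Alb-Cre, which deletes Irs1 and Irs2 in hepatocytes, were all injected with DEX and fed, so that this contrast is one within DEX-treated livers. Mice kept for 10 weeks on chow (lean) or on a high-fat diet (DIO, obese) were killed at ZT14 unfed or fed, with 3 mice in each of the 4 groups. Values are RPKM, reads scaled to the length of the transcript and to the depth of the library, so levels can be compared between genes. Fold changes are differences of log2(RPKM + 0.5) from limma, fitted over all genes of an experiment with a mean of at least 0.5 RPKM, with Benjamini-Hochberg adjusted p-values. A gene was called at an adjusted p under 0.01 in the uninjected and diet experiments and under 0.05 in the others.

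The smallest common step of the RPKM values, which is worth 1 counted read or read pair, put the depth, in mega-units (M) per library, at 26 to 38 M in the uninjected mice, 6.47 to 13.4 M in the injected mice, 15.2 to 27.3 M for L-GRKO, 3.64 to 4.48 M for L-IRSdKO and 16.9 to 62 M in the diet experiment. For L-IRSdKO the study lists larger totals, and whether a unit there is a read or a pair is not given in the sources used here. The L-IRSdKO libraries stood apart, since their most abundant transcript reached 674 to 914 RPKM where the other libraries reached 18853 to 60597 RPKM, and the 4 hepatocyte markers (Alb, Apoa1, Ttr, Cps1) summed to 1804 to 2291 RPKM in place of 27744 to 72224 RPKM. Levels in that experiment are therefore compared only within it. The targeted genes followed the labels, with Nr3c1 at 12.8 to 16.2 RPKM in controls and 3.93 to 5.35 RPKM in L-GRKO, and Irs1 at 2.21 to 4.73 RPKM in controls and 0.149 to 0.321 RPKM in L-IRSdKO, while Irs2 overlapped at 0.614 to 5.61 and 0.272 to 1 RPKM. The 2 adipocyte and 2 exocrine pancreas markers summed to at most 0.636 and 3.14 RPKM. In bulk liver, fewer cells of a type and less RNA per cell cannot be told apart. Of the 10 genes, 8 were tested in 4 experiments and 7 in the L-GRKO experiment, where Asns was under the filter as well as Psat1 and Phgdh. Ddit3 and Atf5 share 68 and 82 exonic bases with genes on the opposite strand in the mm9 annotation, and no source used here gives the strand counted.

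Of the 10 genes, 3 had the composite element of C/EBP and ATF factors, written TGATGNAA, in the 300 bases around the gene start. The element was searched on both strands in RefSeq promoters of GRCm38.p6 that span 250 bases before to 50 bases after the start, and 3.97% of all 32851 promoters held it. The 3 promoters are shown because these 3 genes hold the element: Chac1 and Trib3, whose levels are described next, and Asns, a textbook ATF4 target, with the element in capitals. The Chac1 match begins at base -193 from the start, the Asns match at base -23 and the Trib3 match at base 15. The exact form TGATGCAA, of which Chac1 holds the reverse complement, occurs in 0.895% of promoters.
Chac1, chr2:119350992-119351291, + strand: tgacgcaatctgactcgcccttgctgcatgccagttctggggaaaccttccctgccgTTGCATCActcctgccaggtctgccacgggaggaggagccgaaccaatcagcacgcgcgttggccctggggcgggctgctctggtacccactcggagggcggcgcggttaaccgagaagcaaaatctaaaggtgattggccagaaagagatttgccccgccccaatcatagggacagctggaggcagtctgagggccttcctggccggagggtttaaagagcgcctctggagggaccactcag
Trib3, chr2:152344011-152344310, - strand: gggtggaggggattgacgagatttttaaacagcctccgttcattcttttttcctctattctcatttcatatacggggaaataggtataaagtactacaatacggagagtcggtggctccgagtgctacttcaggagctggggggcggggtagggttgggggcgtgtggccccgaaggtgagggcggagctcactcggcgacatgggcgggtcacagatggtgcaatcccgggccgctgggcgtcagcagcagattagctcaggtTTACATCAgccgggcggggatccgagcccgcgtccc
Asns, chr6:7693160-7693459, - strand: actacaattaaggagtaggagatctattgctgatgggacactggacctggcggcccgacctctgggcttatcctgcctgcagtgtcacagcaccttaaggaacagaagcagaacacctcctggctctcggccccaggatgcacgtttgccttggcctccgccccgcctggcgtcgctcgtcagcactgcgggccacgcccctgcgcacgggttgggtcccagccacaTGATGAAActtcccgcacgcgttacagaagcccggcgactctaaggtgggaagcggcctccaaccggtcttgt
The promoters of the other 7 genes held no match in this window.

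Chac1, Trib3 and Sesn2 had a lower fitted mean after food than before it in all 4 meal contrasts. CHAC1 breaks down glutathione, TRIB3 is a pseudokinase that binds and restrains AKT, and SESN2 is a leucine sensor that holds back mTORC1. In uninjected mice Chac1 was at 1.18 and 1.16 RPKM in the ZT14-unfed livers and at 0.131 and 0.049 RPKM in the ZT14-fed livers, where the lowest value rested on about 2 reads. The groups did not overlap, as for 59.7% of all genes with 2 mice a group, and the log2 fold change of -1.51 ± 0.30 (SE) had an adjusted p of 0.031, which missed the threshold of 0.01. Sesn2 was at 1.89 and 2.34 RPKM unfed and at 0.801 and 0.808 RPKM fed (log2 fold change -1.0 ± 0.20, adjusted p = 0.035). Against ZT10, where Chac1 was at 1.17 and 2.86 RPKM, the fed livers had a log2 fold change of -2.01 ± 0.30 (adjusted p = 0.0111), and of -2.51 (0.00749) without ZT10 replicate 1. Trib3 was at 0.267 and 1.2 RPKM unfed and at 0.234 and 0.336 RPKM fed, so that one unfed mouse was within the fed range. Of the 8 genes tested, 1 was called in this contrast, Ddit3, against 0.99% of all genes.

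In mice injected with PBS, Sesn2 fell with the meal. Its values were 3.22, 3.82, 3.08 and 3.6 RPKM in the 4 unfed mice and 0.672, 1.1, 1.21 and 1.64 RPKM in the 4 fed mice, with a log2 fold change of -1.28 ± 0.24 (adjusted p = 0.00875). Chac1 was at 2.31, 2.23, 1.87 and 1.68 RPKM unfed and at 0.162, 0.809, 0.816 and 0.486 RPKM fed. Trib3 was at 1.25, 1.21, 1.43 and 1.52 RPKM unfed and at 0.289, 0.476, 0.663 and 0.424 RPKM fed. The unfed and fed mice did not overlap for either gene, as for 13.5% of all genes, and the log2 fold changes of -1.29 ± 0.35 for Chac1 and -0.96 ± 0.27 for Trib3 stood just above the threshold of 0.05 (adjusted p = 0.052 and 0.054). They were under it with a term for the library series, that is, for the later library numbers of replicate 4 in each group (adjusted p = 0.027 and 0.024), and in the fit of the 2 groups alone (0.027 and 0.02). The 3 endothelial markers (Stab2, Kdr, Pecam1) summed to 17.2 to 18.6 RPKM in unfed and 20.3 to 23.9 RPKM in fed PBS mice, and the 4 Kupffer cell and macrophage markers (Clec4f, Vsig4, Cd68, Adgre1) to 30.3 to 43.7 and 43.4 to 67.9 RPKM, and their part was not tested. Thus 1 of 8 genes was called, against 3.13% of all genes, and 3 of 8 with the term for the series.

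In lean mice of the diet experiment Chac1 and Sesn2 fell with the meal, and Sesn2 had the larger fold change of the pair. Sesn2 went from 5.57, 5.35 and 5.11 RPKM in the unfed mice to 0.876, 1.16 and 0.835 RPKM in the fed mice (log2 fold change -2.01 ± 0.27, adjusted p = 0.00086). Chac1 went from 1.08, 2.06 and 2.3 RPKM to 0.235, 0.513 and 0.141 RPKM (log2 fold change -1.52 ± 0.24, adjusted p = 0.0017). Trib3 was at 3.29, 2.29 and 2.91 RPKM unfed and at 0.643, 0.392 and 0.862 RPKM fed, with a log2 fold change of -1.56 ± 0.40 and an adjusted p of 0.0175, above the threshold of 0.01. Of 8 genes tested, 3 were called, with Atf4 as the one that rose, against 10.2% of all genes. The endothelial markers also went from 16.3 to 18.5 RPKM in unfed lean mice to 11.7 to 12.1 RPKM in fed lean mice, and the 3 stellate cell and fibroblast markers (Dcn, Lrat, Col1a1) from 52.7 to 88.3 RPKM to 38.5 to 51.4 RPKM. Their part in these results was not tested.

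In obese mice Chac1 fell with the meal as well, from 2.96, 2.9 and 2.4 RPKM to 0.317, 0.553 and 0.699 RPKM (log2 fold change -1.68 ± 0.24, adjusted p = 0.005). Sesn2 was at 1.7, 4.79 and 2 RPKM in unfed obese mice and at 1.8, 1.74 and 1.13 RPKM in fed obese mice, so that the groups overlapped. Before the meal, the 3 lean values of Sesn2 lay above the 3 obese values, in one of the 22.9% of genes whose groups were apart, with a log2 difference of -0.93 ± 0.27 for obese minus lean (adjusted p = 0.0755). The endothelial markers were at 16.3 to 18.5 RPKM in unfed lean and 11 to 13.7 RPKM in unfed obese mice, the hepatocyte markers at 51463 to 61226 and 43656 to 51174 RPKM, and the neutrophil markers (S100a8, S100a9) at 0.152 to 0.278 and 0.515 to 1.29 RPKM, and their part was not tested. Without the obese unfed replicate 2, which had the 4.79 RPKM, the difference was -1.32 with an adjusted p of 0.0065. The difference between the meal responses of Sesn2 in obese and lean mice was 1.41 ± 0.39 on the log2 scale (adjusted p = 0.126), and 1.81 (adjusted p = 0.0093) without the same mouse. For Chac1 the difference of the meal responses was -0.16 ± 0.34 (adjusted p = 0.86). Trib3 was at 4.99, 2.53 and 0.826 RPKM in unfed and at 1.44, 0.873 and 0.826 RPKM in fed obese mice. Of 8 genes tested, 2 were called in the obese meal contrast against 1.22% of all genes, 0 between obese and lean mice before the meal against 0.77%, 0 after the meal against 0%, and 0 for the difference of the meal responses against 0.131%. At an unadjusted p under 0.05, 2624 genes differed between obese and lean mice before the meal and 2284 after it, among them 2 of the 8 genes each time (Chac1 and Sesn2 unfed, Ddit3 and Asns fed), and 1713 genes differed in their meal response, among them Sesn2. The Chac1 call in obese mice was lost, with adjusted p-values of 0.0115 to 0.0266, without unfed replicate 1 or 2 or any of the fed mice.

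**Figure D1:**
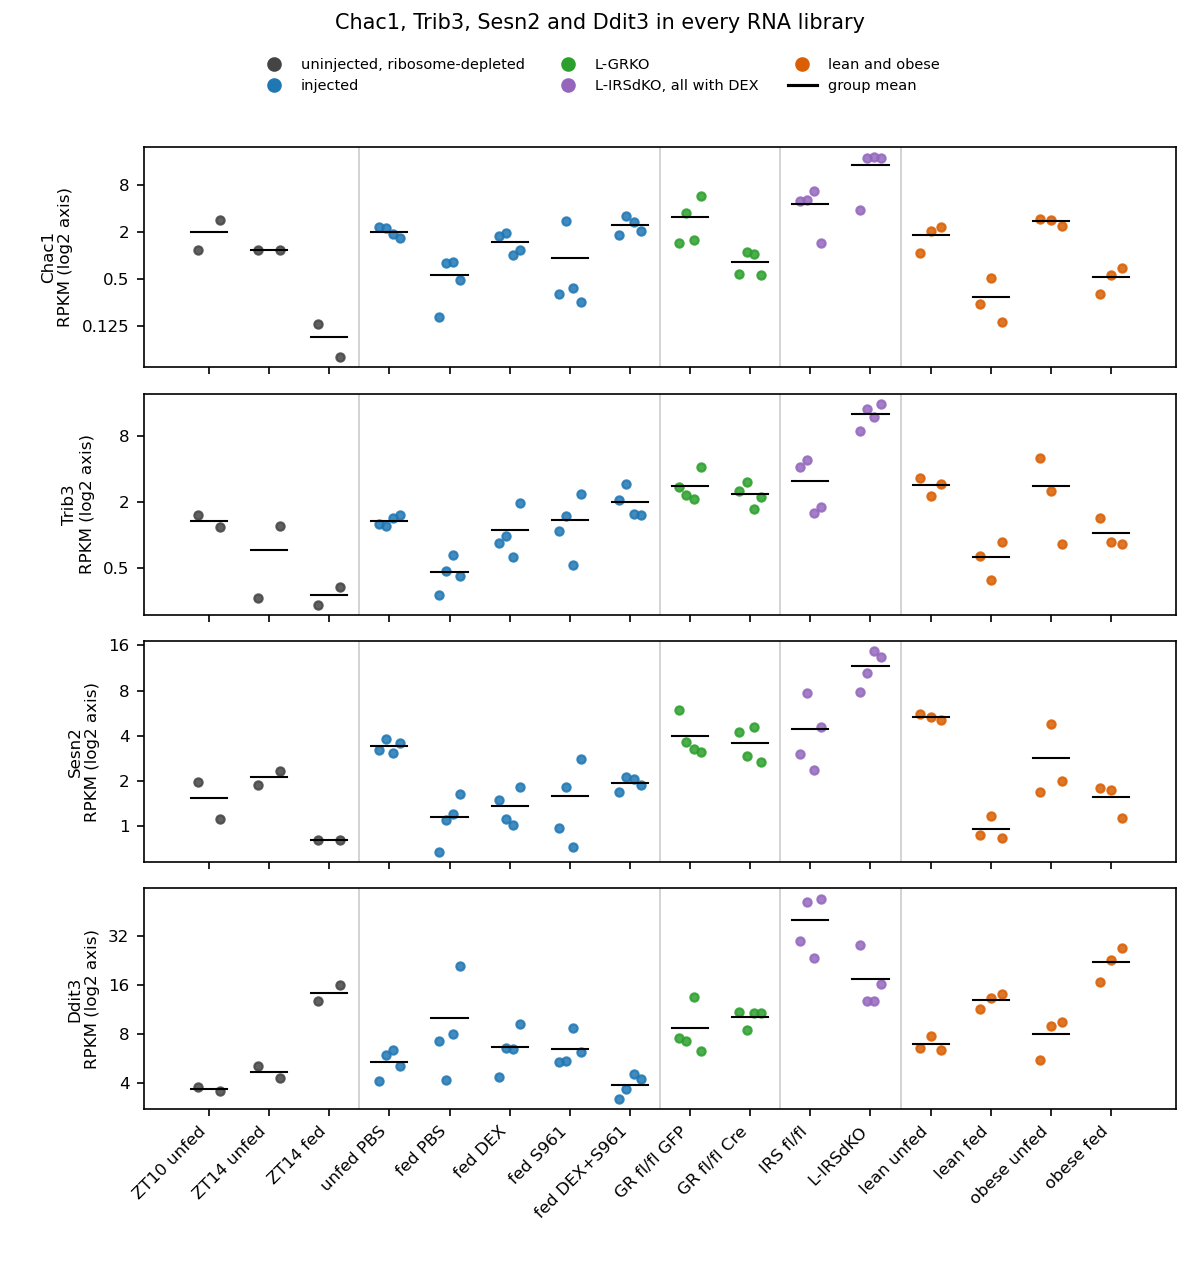
RPKM of Chac1, Trib3, Sesn2 and Ddit3 (vertical axis, log2 scale) in each of the 54 RNA libraries, grouped by condition on the horizontal axis, with points for mice, colours for experiments and bars for group means. Chac1, Trib3 and Sesn2 sit lower in fed PBS mice than in unfed PBS and in DEX plus S961 mice, Ddit3 spans 4.16 to 20.8 RPKM in fed PBS mice and 3.19 to 4.57 RPKM with DEX plus S961, and the L-IRSdKO experiment is at higher levels of its own.

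In the injected mice 2 hormonal signals of the fed state were changed, since DEX supplies a glucocorticoid and S961 blocks insulin action in mice that have eaten. The study also reports raised blood glucose, insulin and free fatty acids after S961, and lowered corticosterone after the combination. The part of these changes was not tested. With DEX and S961 together, Chac1 and Trib3 rose against fed PBS mice. Chac1 was at 1.83, 3.23, 2.69 and 2.06 RPKM (log2 fold change 1.49 ± 0.35, adjusted p = 0.011), above all 4 fed PBS mice and overlapping the unfed PBS mice at 1.68 to 2.31 RPKM. Trib3 was at 2.08, 2.91, 1.55 and 1.51 RPKM (log2 fold change 1.36 ± 0.27, adjusted p = 0.003), again above all fed PBS mice, where 17.1% of all genes had groups apart. Sesn2 was at 1.68, 2.14, 2.05 and 1.87 RPKM, above the fed PBS mice and below the unfed PBS mice, with a log2 fold change of 0.58 ± 0.24 (adjusted p = 0.13). Ddit3 fell, and 3 of the 8 genes were called, against 10.6% of all genes. The median log2 fold change of all genes in this contrast was -0.14, the largest such shift among the 15 comparisons, and it was 0.10 and 0.12 for the meal in PBS and in uninjected mice. Scaling the libraries to a common median ratio kept the Chac1 and Trib3 calls.

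Neither agent alone changed any of the 8 genes at the threshold. With DEX alone Chac1 was at 1.77, 1.97, 1 and 1.18 RPKM, all above the fed PBS range of 0.162 to 0.816 RPKM, as groups were apart for 10.5% of all genes (log2 fold change 0.91 ± 0.35, adjusted p = 0.17). With S961 alone it was at 0.319, 0.378 and 0.251 RPKM in replicates 1, 3 and 4 and at 2.79 RPKM in replicate 2 (log2 fold change 0.16 ± 0.35, adjusted p = 0.91). Trib3 was at 0.855, 0.977, 0.632 and 1.97 RPKM with DEX (log2 fold change 0.69 ± 0.27, adjusted p = 0.17). With S961 it was at 1.1, 1.51, 0.541 and 2.35 RPKM (0.88 ± 0.27, adjusted p = 0.11), and the adjusted p was 0.031 without S961 replicate 3. In the order of group means, Chac1 ran from fed PBS through S961 and DEX to unfed PBS and DEX plus S961, and Trib3 from fed PBS through DEX, unfed PBS and S961 to DEX plus S961. Neighbouring groups in these orders overlapped. For Chac1, S961 stood above fed PBS only through S961 replicate 2, and the medians had the reverse order, at 0.3485 RPKM with S961 and 0.6475 RPKM in fed PBS. For Trib3, the median with S961 was below that of unfed PBS, at 1.3025 and 1.344 RPKM. Of 8 genes tested, limma called 0 with DEX against 3.19% of all genes, 0 with S961 against 1.9%, and 0 for the interaction of the agents against 0%. At an unadjusted p under 0.05, 2 of the 8 passed with DEX, 2 with S961 and 0 for the interaction, and of all 11251 genes 2085, 1605 and 513 passed. The interaction of Chac1 was 0.42 ± 0.50 and that of Trib3 -0.21 ± 0.38 on the log2 scale. The 3 endothelial markers summed to 20.3 to 23.9 RPKM in fed PBS mice, 11.2 to 19.4 RPKM with DEX, 17.7 to 19.9 RPKM with S961 and 13 to 18.8 RPKM with DEX plus S961. The 4 Kupffer cell and macrophage markers summed to 43.4 to 67.9 RPKM in fed PBS mice and 37.1 to 42.5 RPKM with DEX plus S961. Their part in these contrasts was not tested.

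Loss of GR from hepatocytes of unfed mice lowered Chac1. It was at 1.46, 3.49, 1.59 and 5.76 RPKM in the controls and at 0.577, 1.11, 1.04 and 0.553 RPKM in L-GRKO (log2 fold change -1.30 ± 0.34, adjusted p = 0.047), and the groups did not overlap, as for 12.8% of all genes. This was the 1 call among 7 genes tested, against 6.68% of all genes, and it was lost without control replicate 2 or 4 or any of the L-GRKO mice (adjusted p = 0.0718 to 0.145). It was lost as well after median-ratio scaling (0.0526) and quantile normalization (0.0553), and without control replicate 3 the number called was 2, with Ddit3 as the second. Trib3 (2.13 to 4.14 RPKM in controls and 1.73 to 3.03 RPKM in L-GRKO) and Sesn2 (3.1 to 5.95 and 2.66 to 4.55 RPKM) had log2 differences of -0.20 ± 0.20 and -0.12 ± 0.21, and their groups overlapped. Atf4 was at 31.1 to 46.6 RPKM in controls and at 45.5 to 53.2 RPKM in L-GRKO (log2 fold change 0.35 ± 0.12, adjusted p = 0.13). The red cell markers (Hba-a1, Hbb-b1) summed to 179 to 240.1 RPKM in controls and 256 to 571 RPKM in L-GRKO, the 3 stellate cell and fibroblast markers to 30.4 to 46.1 and 44 to 62.4 RPKM, and their part was not tested.

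Loss of Irs1 and Irs2 in fed, DEX-injected mice raised Trib3 and Sesn2. Trib3 was at 4.15, 4.84, 1.59 and 1.82 RPKM in the controls and at 8.79, 14, 11.7 and 15.5 RPKM in L-IRSdKO (log2 fold change 1.94 ± 0.33, adjusted p = 0.0068). Sesn2 was at 3, 7.69, 2.36 and 4.6 RPKM in controls and at 7.84, 10.5, 14.6 and 13.4 RPKM in L-IRSdKO (log2 fold change 1.38 ± 0.33, adjusted p = 0.022). The groups did not overlap for either gene, as for 21.7% of all genes, and the Sesn2 call was lost without control replicate 1 or L-IRSdKO replicate 2, 3 or 4 (adjusted p = 0.0556 to 0.0681). Chac1 was at 5.08, 5.17, 6.75 and 1.43 RPKM in controls and at 18.1, 18.6 and 17.9 RPKM in L-IRSdKO replicates 2, 3 and 4, but at 3.83 RPKM in replicate 1. With all mice its log2 fold change was 1.5 ± 0.56 (adjusted p = 0.097), and without L-IRSdKO replicate 1 it was 2.03 (adjusted p = 0.0086). The same mouse had the highest Asns and Ddit3 of its group, at 34.6 and 28 RPKM. Of 8 genes tested 3 were called, against 17.4% of all genes. The endothelial markers were at 28.3 to 31 RPKM in controls and at 37.4 to 47.1 RPKM in L-IRSdKO, and the 4 Kupffer cell and macrophage markers at 106.6 to 176 and 171 to 194 RPKM. Their part in these differences was not tested.

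Ddit3, which encodes CHOP, the factor that links ER stress to cell death, had a higher fitted mean after food in all 4 meal contrasts, the opposite of Chac1, Trib3 and Sesn2. In uninjected mice it was at 3.81 and 3.56 RPKM at ZT10, at 5.06 and 4.33 RPKM at ZT14-unfed, and at 12.7 and 16 RPKM at ZT14-fed. It rose with the meal (log2 fold change 1.51 ± 0.14, adjusted p = 0.0031) and from ZT10 to ZT14-fed (1.82 ± 0.14, adjusted p = 0.0015). It was the 1 gene of the 8 called from ZT10 to ZT14-fed, against 1.71% of all genes. Between ZT10 and ZT14 without food limma called 0 of the 8 genes, against 1.16% of all genes, and 1 (Asns) had an unadjusted p under 0.05, as had 2876 of all genes. With 2 mice a group, the Ddit3 meal call was lost without unfed replicate 2 or either fed mouse (adjusted p = 0.012 to 0.0349), and the ZT10 to ZT14-fed call without any of its 4 mice (0.0118 to 0.0217). In obese mice Ddit3 rose from 5.57, 8.91 and 9.52 RPKM to 16.6, 22.7 and 26.8 RPKM (log2 fold change 1.41 ± 0.20, adjusted p = 0.005), a call lost without unfed replicate 2 or fed replicate 2 or 3 (0.0146 to 0.0273). In lean mice it was at 6.57, 7.82 and 6.41 RPKM unfed and at 11.3, 13.3 and 14.1 RPKM fed (log2 fold change 0.85 ± 0.20, adjusted p = 0.0126), so the groups did not overlap, as for 43.3% of all genes, while the call was missed. The difference of the 2 meal responses, 0.56 ± 0.29, had an adjusted p of 0.39.

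In injected mice Ddit3 was at 7.24, 4.16, 8 and 20.8 RPKM in fed PBS mice and at 4.12, 5.95, 6.36 and 5.11 RPKM in unfed PBS mice, and the groups overlapped (log2 fold change 0.63 ± 0.31, adjusted p = 0.285). It fell with DEX plus S961 to 3.19, 3.7, 4.57 and 4.24 RPKM (log2 fold change -1.03 ± 0.31, adjusted p = 0.0415). Without fed PBS replicate 4 the log2 fold change was -0.62 (adjusted p = 0.099). The call was also lost without fed PBS replicate 1 or 3 or any DEX plus S961 mouse (0.0534 to 0.101), and after median-ratio scaling (0.103). In L-IRSdKO Ddit3 fell, from 29.8, 51.6, 23.5 and 54 RPKM in controls to 28, 12.7, 12.7 and 16.3 RPKM (log2 fold change -1.16 ± 0.32, adjusted p = 0.04). The groups overlapped, and the call was lost without control replicate 1, 2 or 4 or L-IRSdKO replicate 2, 3 or 4 (0.0602 to 0.111). Ddit3 was at 6.28 to 13.5 RPKM in L-GRKO controls and at 8.51 to 10.8 RPKM in L-GRKO.

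Atf4 had the highest mean of the 10 genes over all libraries, those of the L-IRSdKO experiment included. Atf5 had the higher median over all libraries, at 49 against 45.1 RPKM. Its mean was above that of Atf4 in the L-GRKO experiment (50.3 against 44.2 RPKM) and the diet experiment (69.4 against 61 RPKM), and below it in the others. Over the 46 libraries outside the L-IRSdKO experiment Atf4 ranged from 25.4 to 79.5 RPKM. It rose with the meal in lean mice, from 48.2, 51.3 and 45.9 RPKM to 76.8, 79.5 and 67.3 RPKM (log2 fold change 0.61 ± 0.13, adjusted p = 0.008). The call was lost without any of these 6 mice (0.0143 to 0.0349) and after median-ratio scaling (0.0194). The groups did not overlap, as for 43.3% of all genes. In obese mice Atf4 was at 56.9, 40.4 and 57 RPKM unfed and at 62.3, 74 and 72.5 RPKM fed (0.45 ± 0.13, adjusted p = 0.0626). In uninjected mice it was at 40.5 and 34.7 RPKM unfed and at 38.1 and 45 RPKM fed, and in PBS mice at 33.1 to 37.3 RPKM unfed and 34.9 to 56.2 RPKM fed. Its log2 fold changes with DEX, S961 and both were 0.04, -0.15 and -0.09, each ± 0.16. In the L-IRSdKO experiment it was at 110.4 to 126.7 RPKM in controls and 99.2 to 115.6 RPKM without Irs1 and Irs2 (-0.18 ± 0.07, adjusted p = 0.10), and without L-IRSdKO replicate 1 the adjusted p was 0.034.

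**Figure D2:**
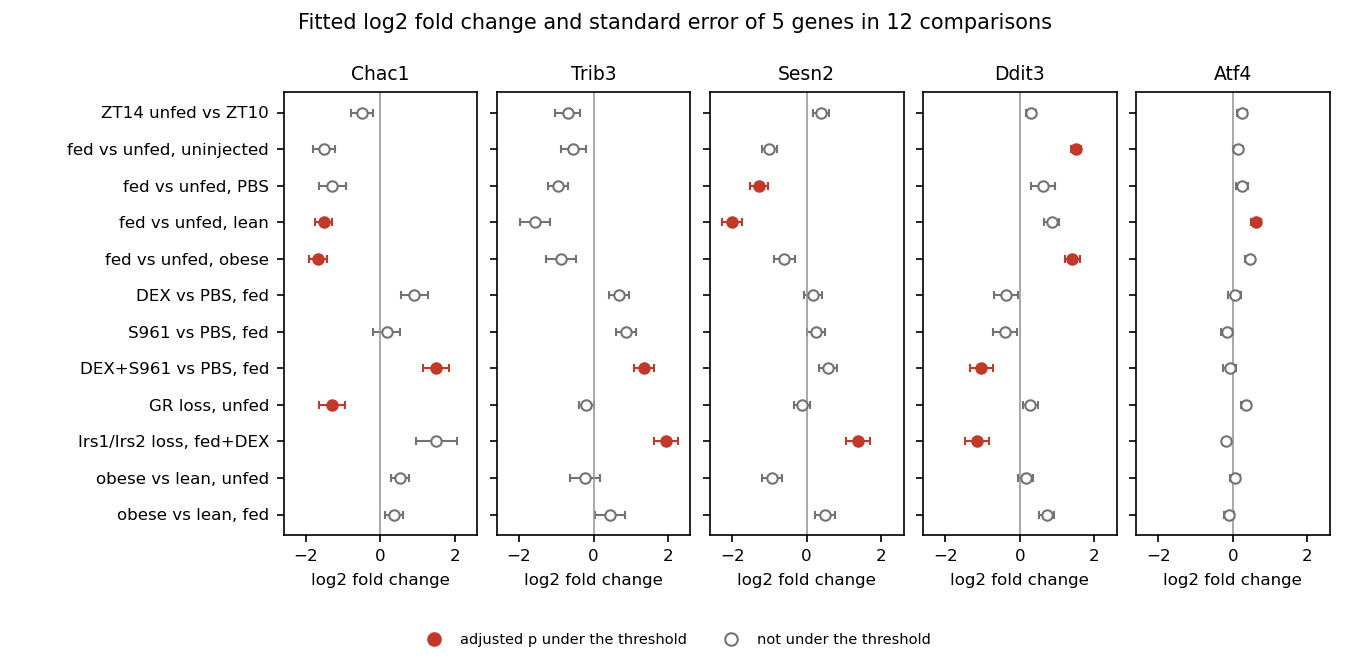
Fitted log2 fold change (horizontal axis) with its standard error for Chac1, Trib3, Sesn2, Ddit3 and Atf4 in 12 comparisons (vertical axis), where red points passed the threshold of their comparison and open points did not. In the 4 meal contrasts Chac1, Trib3 and Sesn2 lie left of 0 and Ddit3 and Atf4 right of it, and in the DEX plus S961 and Irs1/Irs2 loss contrasts the first 3 lie right and Ddit3 left.

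Atf5 encodes a factor whose mRNA has upstream reading frames like those of Atf4, but its transcript of highest mean, used here, was a non-coding RefSeq entry. Its level differed between the ribosome-depleted and the poly(A) libraries. The ribosome-depleted libraries are all of the uninjected experiment, so library type and experiment cannot be told apart. Atf5 was at 4.97 to 8.6 RPKM in the 6 ribosome-depleted libraries and at 18 to 94.7 RPKM in the poly(A) libraries outside the L-IRSdKO experiment. In the injected mice, Atf5 was at 44.1 to 94.7 RPKM in replicate 4 of the 5 groups, from the later library numbers. The 15 other mice were at 18 to 39.1 RPKM, without overlap. Each of the other genes examined here overlapped between these sets of mice. The share of all genes that were apart in this way was not computed. Whether the separation is particular to Atf5 or general to the library series was therefore not tested. Atf5 was called in none of the 15 comparisons, and its smallest adjusted p was that of Irs1 and Irs2 loss, with 62.9 to 84.9 RPKM in controls and 78.9 to 97.3 RPKM in L-IRSdKO (log2 fold change 0.33 ± 0.11, adjusted p = 0.064). That p was 0.026 without control replicate 4.

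Asns, the asparagine synthetase, varied widely between mice of the same group and was called in no comparison. In fed PBS mice it was at 4.73, 16.9, 2.25 and 9.64 RPKM, with DEX at 31.8, 16.6, 12.8 and 3.85 RPKM, and in unfed PBS mice at 2.81, 3.02, 3.9 and 0.966 RPKM. In fed lean mice it was at 3.71, 14.4 and 12.9 RPKM and in fed obese mice at 0.543, 1.96 and 0.494 RPKM, which did not overlap, as for 32.6% of all genes (log2 fold change -2.79 ± 0.83 for obese minus lean, adjusted p = 0.122). The spread within groups gave the standard errors of 0.63 in injected mice and 0.83 in the diet experiment, against 0.13 for Atf4 in the latter. In the L-GRKO experiment Asns was at 0.125 to 0.774 RPKM in all 8 mice and was not tested. Between ZT10 and ZT14 without food it went from 1.8 and 1.98 to 4.04 and 4.64 RPKM (1.02 ± 0.30, adjusted p = 0.082).

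The 3 enzymes that make serine from a glycolytic intermediate were at low levels. Phgdh, the first step, was at 0 RPKM in 35 of 54 libraries and reached at most 0.317 RPKM. A count of 3 reads or read pairs of Phgdh would have given 0.118 to 0.245 RPKM in the injected mice and 0.354 to 0.436 RPKM in the L-IRSdKO experiment, which is the level that a count of 0 allows. All 8 libraries of the L-GRKO experiment had reads of Phgdh, at 0.028 to 0.317 RPKM or about 1 to 10.6 reads. Psat1, the second step, was at 0.045 to 0.925 RPKM and under the filter in every experiment. Psph, the last step, was tested in every experiment and called in none. It was at 0.612 to 3.44 RPKM outside the L-IRSdKO experiment, and with DEX plus S961 at 1.37, 0.925, 0.612 and 2.11 RPKM against 1.72 to 2.98 RPKM in fed PBS mice (log2 fold change -0.66 ± 0.23, adjusted p = 0.073). The adjusted p was 0.02 without DEX plus S961 replicate 4 and 0.043 with a term for the library series.

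**Figure D3:**
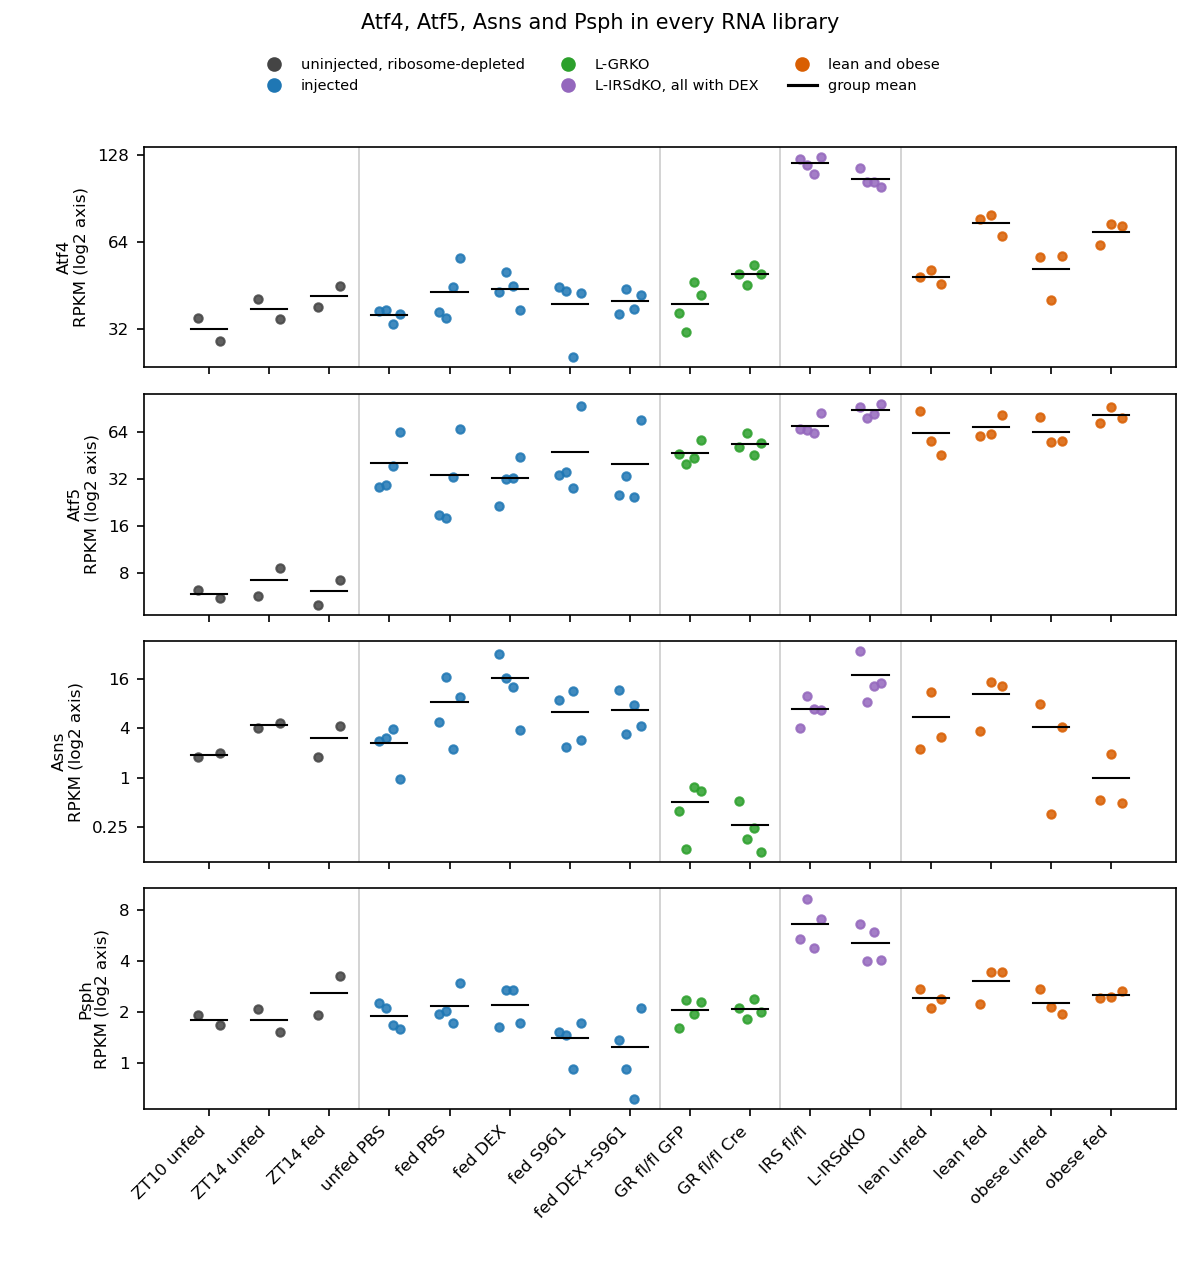
RPKM of Atf4, Atf5, Asns and Psph (vertical axis, log2 scale) in each of the 54 RNA libraries, grouped by condition on the horizontal axis, with points for mice, colours for experiments and bars for group means. Atf5 is at 4.97 to 8.6 RPKM in the ribosome-depleted libraries, Asns spreads widely within groups, and Atf4 lies between 25.4 and 79.5 RPKM outside the L-IRSdKO experiment.

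Across the 54 libraries, after the mean of each experiment was taken out, Chac1, Trib3 and Sesn2 ran together and Ddit3 ran against them. These values describe libraries that share the meal and hormone contrasts and carry no test. Pearson's r of log2(RPKM + 0.5) was 0.65 between Trib3 and Chac1, 0.695 between Trib3 and Sesn2, 0.55 between Chac1 and Sesn2, -0.72 between Ddit3 and Chac1, and 0.53 between Atf4 and Ddit3. Between Ddit3 and Chac1 it was -0.95, -0.53, -0.71, -0.91 and -0.68 within the uninjected, injected, L-GRKO, L-IRSdKO and diet experiments with 6, 20, 8, 8 and 12 libraries. In the same order it was -0.76, -0.22, -0.11, -0.52 and -0.62 between Ddit3 and Sesn2. Within L-GRKO, Sesn2 had an r of -0.22 with Trib3 and -0.09 with Chac1. In the other experiments these pairs were at 0.55 to 0.89 and 0.55 to 0.68. After the mean of each group was taken out, r was -0.44 between Ddit3 and Chac1. For Trib3 with Chac1 and with Sesn2 it was 0.22 and 0.38, and for Chac1 with Sesn2 it was 0.06, while for Ddit3 with Trib3 and with Sesn2 it was -0.22 and 0.19.

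**Figure D4:**
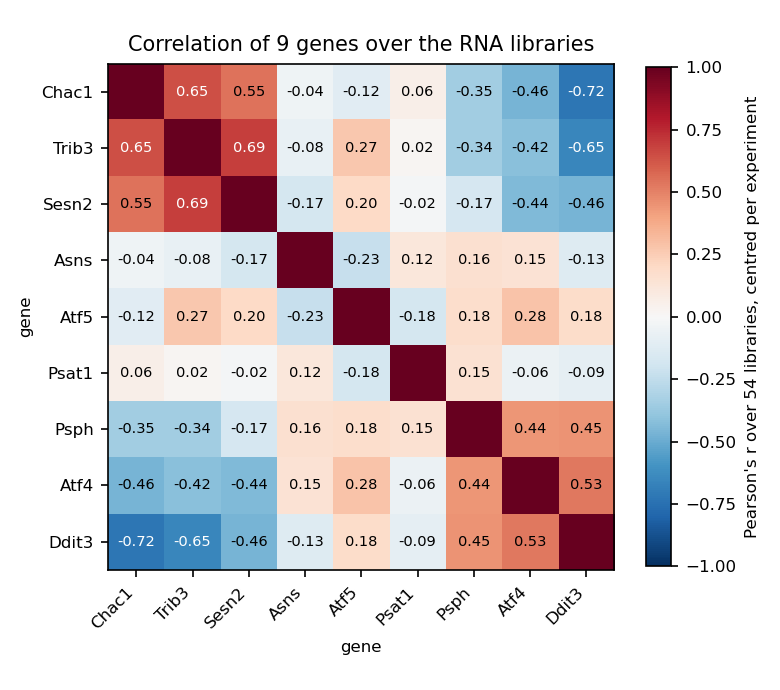
Pearson's r between 9 of the 10 genes over 54 libraries, on log2(RPKM + 0.5) centred on the mean of each experiment, with both axes listing genes and colour giving r. Chac1, Trib3 and Sesn2 form a positive block (0.55 to 0.695), and Ddit3 is negative with each of them (-0.72 to -0.46).

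Among 11889 other genes, the nearest to Trib3 by this measure were Rgs16 (r = 0.85) and Slc8b1 (0.84), those nearest to Chac1 were Slc8b1 (0.77) and Ip6k2 (0.77), and those nearest to Sesn2 were Arl4d (0.81) and Igfbp1 (0.80). The nearest to Ddit3 were Syvn1 (0.86), an ER ubiquitin ligase, and Ccdc134 (0.86). Atf4 was nearest to Tmem115 (0.79) and Trabd (0.78), and Atf5 to Il4i1b (0.93), whose name is like that of the overlapping neighbour Il4i1, and Ubald1 (0.84). Asns was nearest to Acsl4 (0.69), and Psph to Gna11 (0.65) and C2cd2l (0.64). Psat1 with Rab18 (0.56) and Mmrn2 (0.52), and Phgdh with Slc22a28 (0.45) and Nr3c2 (0.44), had weaker neighbours at levels near those of a few reads.

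The other genes of the pathway were followed in 7 lists. Of 10 genes for ER chaperones and the other arms of the unfolded protein response, 7 rose with the meal in PBS mice, 6 in lean mice and 7 in obese mice, where 3.13%, 10.2% and 1.22% of all genes were called, and 0 of 10 were called lower. In uninjected mice limma called 0 of the 10 at 0.01, with 8 at an unadjusted p under 0.05, and their median was 0.82, against 0.12 over all genes. Their median log2 fold change in the PBS, lean and obese contrasts was 1.08, 1.28 and 1.46, against 0.10, 0.08 and 0.02 over all genes tested. The ER resident factor Creld2 rose by 1.71 ± 0.40 in PBS mice (adjusted p = 0.028), by 2.03 ± 0.35 in lean mice (0.0027) and by 3.02 ± 0.35 in obese mice (0.0023). With DEX plus S961, 7 of the 10 fell where 10.6% of all genes were called (median -0.88, all genes -0.14), and with loss of Irs1 and Irs2, 6 of the 10 fell where 17.4% were called (median -0.51, all genes 0.03). Of 13 aminoacyl-tRNA synthetase and tRNA export genes 2, 3 and 1 rose with the meal in PBS, lean and obese mice, beside the same 3.13%, 10.2% and 1.22% of all genes, and the tryptophanyl-tRNA synthetase Wars rose in each, by 0.52 ± 0.13, 0.59 ± 0.10 and 0.64 ± 0.10 (adjusted p = 0.04, 0.0024 and 0.0064).

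The amino acid transporter Slc38a2 fell with the meal in uninjected mice (log2 fold change -1.62 ± 0.12, adjusted p = 0.0015) and in lean mice (-2.10 ± 0.29, 0.00097). It rose with DEX by 1.42 ± 0.26 (0.0051), with DEX plus S961 by 1.20 ± 0.26 (0.0062) and with loss of Irs1 and Irs2 by 0.48 ± 0.12 (0.023), and fell with loss of GR (-1.05 ± 0.20, adjusted p = 0.0102). It was the 1 called of 5 tested transporters in the uninjected meal, DEX and GR loss contrasts. Of all genes, 0.99%, 3.19% and 6.68% were called in these contrasts. Ddit4, an mTORC1 inhibitor and known glucocorticoid target, fell with the meal in PBS and lean mice and rose with DEX, with log2 fold changes of -1.87 ± 0.29, -3.07 ± 0.34 and 2.70 ± 0.29 (adjusted p = 0.0042, 0.00035 and 8.4e-05). Before the meal it was lower in obese than in lean mice (-4.37 ± 0.34, adjusted p = 0.00047). Cebpb, a partner of ATF4 on composite elements, fell with the meal in lean mice (-1.88 ± 0.15, adjusted p = 0.00014) and was lower in obese than in lean unfed mice (-1.25 ± 0.15, 0.0027). It was the 1 called of 7 tested genes of its list in both contrasts, beside 10.2% and 0.77% of all genes. Cebpb also rose with DEX plus S961 (1.11 ± 0.33, adjusted p = 0.037) and fell with loss of GR (-0.65 ± 0.16, 0.038). The hormone gene Fgf21 rose with S961 alone by 2.53 ± 0.44 (adjusted p = 0.0056), and Gdf15 with DEX plus S961 by 2.03 ± 0.40 (0.0031). In the list that holds Ddit4, Fgf21 and Gdf15, 1 of 9 tested genes was called with S961 and 3 of 9 with DEX plus S961, beside 1.9% and 10.6%. With DEX and with the meal in PBS mice it was 1 of 9 each, beside 3.19% and 3.13%. With the meal in lean mice it was 3 of 8, and between obese and lean unfed mice 1 of 8, beside 10.2% and 0.77%. The leucine transporter Slc7a5 fell with S961 (-0.67 ± 0.16, adjusted p = 0.029) and with DEX plus S961 (-0.74 ± 0.16, 0.0051) and rose with loss of Irs1 and Irs2 (1.87 ± 0.27, 0.0044). Another list held 16 genes for eIF2, its kinases and their regulators, its exchange factor and its phosphatase. Of these, 1 rose with the meal in PBS mice and 1 in lean mice, and 1 fell with S961 and 3 with DEX plus S961. Of all genes, 3.13%, 10.2%, 1.9% and 10.6% were called in these contrasts. The called genes included Eif2ak3, the ER stress kinase PERK, at 0.62 ± 0.16 with the meal in PBS mice (adjusted p = 0.038) and -0.81 ± 0.16 with DEX plus S961 (0.0028). The phosphatase subunit gene Ppp1r15b was among those that fell with DEX plus S961 (-0.39 ± 0.10, adjusted p = 0.016). The list of one-carbon, proline and cysteine enzymes also holds aminotransferases. Of its 7 tested genes, 1 was called higher with DEX, 1 with S961 and 2 with the combination, beside 3.19%, 1.9% and 10.6% of all genes. The aminotransferase gene Got1 rose in each, by 1.07 ± 0.26, 1.09 ± 0.26 and 1.53 ± 0.26 (adjusted p = 0.03, 0.039 and 0.0013). These 3 contrasts share the fed PBS mice. With loss of Irs1 and Irs2, 2 of 8 tested genes of the list were called higher and 2 lower, beside 17.4% of all genes.

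Binding and accessibility were given as lists of positions without values, with GR and FOXO1 sites called in unfed livers and DNase I hypersensitive sites (DHSs) called over all DNase-seq libraries together, so no condition was compared. Of the 10 genes, 5 had a GR site and 5 a FOXO1 site (FOXO1, the factor that insulin shuts out of the nucleus) within 50 kb of the gene start, against 33.8% and 35.4% of 19783 placed genes, and all 10 had a DHS, against 88.4%. Sesn2 had 6 GR and 7 FOXO1 sites, the most of the 10, of which 5 GR sites overlapped a FOXO1 site. Trib3 had 3 GR and 2 FOXO1 sites upstream, centred between -19696 and -16538 bases from its start, and Chac1 had 1 GR site centred 4500 bases after its start and 0 FOXO1 sites. Atf4 had 0 GR sites and 1 FOXO1 site, Ddit3 had 0 and 2, Atf5 had 1 and 2, Psat1 had 1 and 0, and Asns, Phgdh and Psph had none of either. The Sesn2 site whose peaks are centred 21772 (GR) and 21836 (FOXO1) bases downstream of the start is shown. It was picked because a GR peak, a FOXO1 peak and a DHS overlap there and both motifs named below are present. Other sites of Sesn2, Trib3 and Atf5 have the same overlap. The presence of the motifs is thus part of the choice and not a result. The printed stretch spans both peaks. It holds the forkhead motif TGTTTAC and the hexamer TGTTCT of the GR response element (here as its reverse complement), both in capitals. The forkhead motif lies in the FOXO1 peak but outside the GR peak. The hexamer lies in the GR peak but outside the FOXO1 peak and the DHS. TGTTTAC occurred on either strand in 18.8% of all FOXO1 peaks and 4.36% of all DHSs, and TGTTCT in 27.7% of all GR peaks and 14.3% of all DHSs.
Sesn2 site, chr4:132044491-132044733, NCBIM37 (mm9), + strand: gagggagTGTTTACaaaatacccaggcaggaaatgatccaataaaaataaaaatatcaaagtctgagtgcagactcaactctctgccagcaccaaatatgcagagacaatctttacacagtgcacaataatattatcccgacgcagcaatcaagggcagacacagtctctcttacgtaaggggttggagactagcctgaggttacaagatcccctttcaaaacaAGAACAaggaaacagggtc

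**Figure D5:**
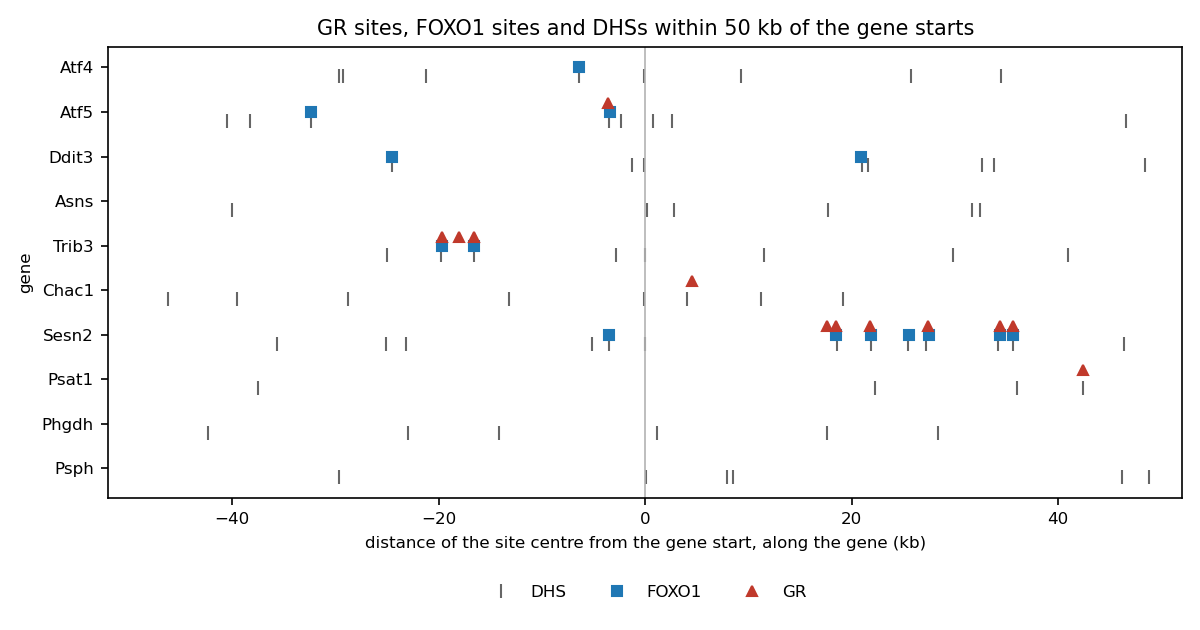
GR sites (triangles), FOXO1 sites (squares) and DHSs (ticks) within 50 kb of the starts of the 10 genes, with the distance along the gene in kb on the horizontal axis and the genes on the vertical axis. Sesn2 carries a cluster of GR and FOXO1 sites beyond its start, Trib3 a smaller one before its start, and Asns, Phgdh and Psph carry DHSs only.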

How the data were processed

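RNA libraries of single livers were sequenced, and the authors deposited one table of RPKM values per RefSeq transcript on mm9, with STAR, HOMER and DESeq2 named, without versions, in the submitters' processing notes. Site positions were deposited as lists without scores. The deposited RPKM values carry no counts, so depth was read from their smallest common step. Of 35707 transcripts 35407 had a symbol, and each symbol kept its transcript of highest mean. Values were tested as log2(RPKM + 0.5) with limma 3.58.1 (R 4.3.3, variance trend), all groups of an experiment in one fit, leaving out genes whose mean was under 0.5 RPKM, with Benjamini-Hochberg adjustment over all genes tested. The pseudocount understates changes of low genes. Tables were handled in Python 3.11.15. Alternatives changed the threshold, pseudocount, filter, scaling, variance trend, groups fitted, replicate block and library series, and left out each mouse. Named pathway genes are the 3 largest called changes of each list and comparison, and like genes the 2 of highest correlation, of which 1 is not reported here. The genes and lists were chosen with earlier results of these data known. Each p-value rests on one mouse per library. H3K27Ac ChIP-seq was not analysed here.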

Additional observations from a re-analysis of the deposited data

Results flagged for a closer look

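In 7 of 86 sets of 4 mice (one gene in one group), a single mouse stood apart from the other 3. The gap exceeded Dixon's critical value at the 95% level. Chance would give about 1 in 20 such sets if values were normally distributed. The values here were untransformed RPKM, so that rate is only a rough guide. Chac1 was at 2.79 RPKM in fed S961 replicate 2, with the nearest mouse at 0.378 RPKM. In L-IRSdKO replicate 1 it was at 3.83 RPKM, with the nearest mouse at 17.9 RPKM. Atf4 was at 25.4 RPKM in fed S961 replicate 3, with the nearest at 42.5 RPKM, and Atf5 at 94.7 RPKM in fed S961 replicate 4, with the nearest at 35.5 RPKM. Ddit3 was at 8.51 RPKM in L-GRKO replicate 2, with the nearest at 10.7 RPKM. Phgdh was at 0.054 RPKM in DEX plus S961 replicate 2 and at 0.134 RPKM in the Irs1/Irs2 control replicate 4. The other mice of each group were at 0 RPKM, so any value above 0 RPKM would have been flagged.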

How the results depend on the processing

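Of 721 values recomputed for 43 results, 621 kept direction and side of the threshold, 68 lost the call, 32 gained one and 0 reversed. These 43 are only the single-gene results with an unadjusted p under 0.05 in the main fit. That choice and the use of the same mice made a reversal unlikely beforehand, so the 0 is no measure of robustness. The number of the 8 genes called with the meal in uninjected mice (1) was 3 at a threshold of 0.05 and 0 without the filter. From ZT10 to ZT14-fed (1) it was 2 at 0.05, 2 with a pseudocount of 0.1, 0 without the filter and 3 with only the 2 groups fitted. For the meal in PBS mice (1) it was 2 with a pseudocount of 0.1, 0 with a filter of 2 RPKM, which leaves fewer of these genes to test, and 3 with quantile normalization, a term for the library series, or only the 2 groups. With DEX plus S961 (3) the filter of 2 RPKM left 1, and it was 2 without Ddit3 under no filter, median-ratio scaling, quantile normalization and only the 2 groups, and 4 with the library series. With Irs1 and Irs2 loss (3) it was 2 under no filter and no variance trend, and 4 with quantile normalization. With GR loss (1) it was 0 under a pseudocount of 1, no filter, the filter of 2 RPKM, median-ratio scaling, quantile normalization and no variance trend. For lean mice (3) it was 5 at 0.05 and 5 with only the 2 groups, and for obese mice (2) it was 0 without the filter, 1 with the filter of 2 RPKM and 0 with only the 2 groups. Within 100 kb, 8 genes had a GR site. Apart from the filter of 2 RPKM, the cause was not tested.

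Leaving out each mouse gave 0 to 1 called genes for the meal in uninjected mice and 0 to 1 from ZT10 to ZT14-fed, 0 to 1 with S961, 2 to 3 with DEX plus S961, 0 to 2 with GR loss, 1 to 5 with Irs1 and Irs2 loss, 2 for lean mice, 0 to 2 for obese mice, 0 to 1 between obese and lean unfed mice and 0 to 1 for the difference of the meal responses.

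Deviations of same-numbered mice correlated above 0.1 in 0 of 6, 27 of 40, 1 of 4, 0 of 4 and 3 of 18 pairs of the uninjected, injected, L-GRKO, L-IRSdKO and diet experiments, so in no experiment did every pair pass, and the numbers were not taken to pair the mice. In the injected mice the median was 0.142 and the lowest -0.12. With the replicate block the number called was 0 for the meal in uninjected mice, 3 for the meal in PBS mice (Chac1, Trib3, Sesn2), 4 with DEX plus S961 (gaining Psph, adjusted p = 0.0476), and 0 with GR loss (Chac1 at 0.0533). With Irs1 and Irs2 loss the block lost Ddit3 (0.0681) and gained Atf5 (0.0456), and for lean mice it lost Atf4 (0.0187) and gained Ddit3 (0.00414).

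Depth limits Phgdh, Psat1 and the lowest values of Chac1 and Trib3, most of all in the L-IRSdKO libraries, where 3 counted reads or pairs of Chac1 are worth 0.409 to 0.504 RPKM.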
